A study of Mus musculus with 18 samples.

Results

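The genes described here are 33 genes of the contractile cytoskeleton: actins, myosins, tropomyosins and other thin filament proteins, focal adhesion proteins, the transcription factor Srf with its cofactors Mrtfa and Mrtfb, and known targets of these factors. They were taken from a named list and not by their values. All 33 were measured, out of 10078 genes tested, and 63 of their 74 probe sets were above the dim level (log2 intensity of at least 5 in at least 2 arrays). The cells were mouse embryonic fibroblasts (cultures grown from E12.5 to E14.5 fetuses after the head, liver and blood clots were taken away). They were wild type (wt), heterozygous or homozygous for a mutant described as constitutively active, placed in TGFBR1 by the series title and named TGFb1 in its design text, and the name mutant is used for it below. Each genotype was sampled untreated (vehicle, with no duration given) and after 4 h and 24 h with TGFb1 at 5 ng/mL. RNA of each of these 9 groups was hybridised to 2 Affymetrix mouse arrays, 18 in all. Nothing in the labels says whether a pair of arrays holds separate cultures. A p-value here reflects only the spread between such pairs, and the small number of arrays limits the precision.

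Srf binds DNA at the CArG box and drives cytoskeletal genes together with its cofactors of the MRTF family. MRTF proteins bind monomeric actin in the cytoplasm, and when actin assembles into filaments they are released, enter the nucleus and join Srf. TGFb is a classical inducer of the contractile, smooth muscle-like state of fibroblasts (the myofibroblast), whose usual markers are smooth muscle actin (Acta2), transgelin (Tagln) and calponin (Cnn1).

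The arrays held the RNA of fibroblasts, and 8 of 9 fibroblast markers on the array (such as Col1a1, Col1a2, Fn1 and Vim) were above the dim level in all 18 arrays. Over all genes tested, pairs of wt arrays agreed less well than pairs of mutant arrays. The root mean square SD was 0.32 to 0.39 in the wt groups, 0.18 to 0.22 in the heterozygous and 0.19 to 0.20 in the homozygous groups. For the 33 genes it was 0.20 to 0.34, 0.17 to 0.23 and 0.12 to 0.15 in that order. There untreated wt cells (0.20) lay below untreated heterozygous cells (0.23). Xist, the RNA of the inactive X chromosome, was at 11.27 or more in 12 arrays and at 2.68 or less in 6. It was high in untreated wt replicate 1 but in replicate 2 of wt at 4 h and 24 h, high in homozygous replicate 1 in every treatment, and high in all 6 heterozygous arrays. Eif2s3y, a gene of the Y chromosome, was the other way round (10.41 or more in the 6 arrays low in Xist, 4.58 or less in the 12 others). The arrays of each wt and each homozygous pair thus held different RNA and are no technical repeats. Xist does not tell the arrays of a heterozygous pair apart, so their spread may be technical. Same-numbered heterozygous arrays deviated together between treatments (r of 0.38 to 0.45 across genes), and what that spread holds was not tested.

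Marker lists of fibroblasts and of other cells the cultures could hold were read beside the 33 genes. Sums of intensities are given as the range of each pair, in the order untreated, 4 h and 24 h. For the 9 fibroblast markers the sum was 197443 to 236217, 184086 to 198970 and 225235 to 244724 in wt cells. In heterozygous cells it was 235006 to 246291, 201227 to 207207 and 232115 to 244469, and in homozygous cells 254935 to 259210, 191218 to 208556 and 240747 to 249859. It was thus lower at 4 h than at either other time in both mutants.

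The sum of 15 skeletal muscle markers was 3890 to 4278, 4556 to 7880 and 2825 to 6676 in wt cells. In heterozygous cells it was 1949 to 2585, 2806 to 3730 and 1595 to 2165, and in homozygous cells 1787 to 1894, 2432 to 2826 and 1562 to 1794. Of these markers 4 (Des, Acta1, Tnni1 and Mylpf) were above the dim level in every array, and 7, among them Myod1, Myf5, Myf6 and Ckm, were under it in every array. The sum of 7 cardiac markers was 528 to 1574, 776 to 1667 and 729 to 1254 in wt, 446 to 564, 984 to 1105 and 667 to 778 in heterozygous, and 353 to 414, 842 to 887 and 564 to 641 in homozygous cells. Of these Tnnt2 and Actc1 were above the dim level in every array, and Nkx2-5, Myh6, Myh7, Tnni3 and Nppa under it. The 8 markers of vascular smooth muscle and pericytes, which share Des with the skeletal list, summed to 4572 to 6652, 5476 to 7989 and 4951 to 5841 in wt cells. They gave 5224 to 6297, 6716 to 7664 and 5316 to 5824 in heterozygous and 5612 to 6426, 6746 to 6852 and 5765 to 5915 in homozygous cells. In this list 6 markers were above the dim level in every array, and Kcnj8 and Abcc9 were under it.

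The sum of 10 macrophage markers, 7 of them above the dim level in every array, was 1663 to 4286, 1700 to 6893 and 1104 to 3087 in wt cells. It was far higher in heterozygous (13607 to 17905, 16520 to 21748 and 12212 to 16396) and homozygous cells (10143 to 10864, 14404 to 14597 and 8364 to 8582). The 6 epithelial markers summed to 632 to 1397, 1187 to 2149 and 575 to 1609 in wt, 1075 to 1894, 2426 to 3572 and 1237 to 2429 in heterozygous, and 954 to 1173, 2056 to 3061 and 1319 to 1456 in homozygous cells. Krt18 and Epcam were above the dim level in every array, and Cdh1, Krt5 and Krt14 under it in every array. Of the 6 endothelial markers only Emcn was above the dim level, and Pecam1, Cdh5, Kdr, Tek and Tie1 were under it in every array. Their sum was 390 to 616, 416 to 836 and 326 to 539 in wt, 442 to 574, 570 to 776 and 349 to 469 in heterozygous, and 399 to 537, 586 to 737 and 355 to 414 in homozygous cells.

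With the muscle marker sum of each array as a covariate (chosen after seeing the data), 53 of 74 calls of these genes held, over the treatment comparisons and those between the times. Among the calls against untreated cells, those of Synpo2, Mrtfa and Mrtfb in wt cells, Tagln in heterozygous cells, and Tagln, Synpo2 and Mrtfb in homozygous cells, all at 4 h, were lost. The sum holds Acta1, an actin related to the listed genes, and was itself higher at 4 h than untreated in both mutants. The covariate can thus take out part of the response to treatment. Calls held or lost with it say nothing on the share of muscle cells. The part of the other marker lists in the changes below was not tested. In RNA from whole cultures, fewer cells of a type and less RNA per cell cannot be told apart.

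Several of these genes carry a CArG box next to their start, and a few are shown here because Srf, Fhl2, Myl9 and Cnn2 are genes whose levels changed and Vcl and Actg1 are genes whose levels lie near the top of the scale. The CArG box was searched as CC, 6 letters that are each A or T, and GG, which reads alike on both strands. The windows run from 250 bases before to 50 bases after a RefSeq start (build GRCm38.p6), and 28 of the 33 genes had 1 or more. A CArG box lay in the windows of 8 of these 28 genes (28.6%), against 488 of all 27025 genes with a window (1.81%). The list was made to hold known targets of Srf, so this excess says nothing new about its genes. The 8 were Srf, Fhl2, Myl9, Cnn2, Vcl, Actg1, Filip1l and Ldb3. Of these the first 4 passed in a comparison of treated with untreated cells, and Vcl, Actg1, Filip1l and Ldb3 did not. The 250 bases before the start are printed 5′ to 3′ on the gene's strand, with the CArG box in capitals, and Smtn is added as a gene that also rose in all 3 genotypes but has no such box in its window.
Srf (chr17:46556163-46556412, minus strand): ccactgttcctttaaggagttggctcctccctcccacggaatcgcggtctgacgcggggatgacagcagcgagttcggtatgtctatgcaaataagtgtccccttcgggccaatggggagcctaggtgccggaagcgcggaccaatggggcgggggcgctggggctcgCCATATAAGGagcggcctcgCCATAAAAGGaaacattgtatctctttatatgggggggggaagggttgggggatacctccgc
Fhl2 (chr1:43163962-43164211, minus strand): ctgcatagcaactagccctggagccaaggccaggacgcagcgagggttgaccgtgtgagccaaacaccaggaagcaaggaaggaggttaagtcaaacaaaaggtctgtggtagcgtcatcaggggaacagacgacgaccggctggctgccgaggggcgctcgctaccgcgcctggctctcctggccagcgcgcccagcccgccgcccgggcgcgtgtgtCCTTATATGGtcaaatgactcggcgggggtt
Myl9 (chr2:156775214-156775463, plus strand): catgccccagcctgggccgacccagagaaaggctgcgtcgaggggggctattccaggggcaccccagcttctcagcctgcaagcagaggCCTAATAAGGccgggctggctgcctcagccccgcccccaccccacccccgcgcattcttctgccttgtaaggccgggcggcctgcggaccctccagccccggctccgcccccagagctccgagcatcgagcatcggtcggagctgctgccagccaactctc
Cnn2 (chr10:79988350-79988599, plus strand): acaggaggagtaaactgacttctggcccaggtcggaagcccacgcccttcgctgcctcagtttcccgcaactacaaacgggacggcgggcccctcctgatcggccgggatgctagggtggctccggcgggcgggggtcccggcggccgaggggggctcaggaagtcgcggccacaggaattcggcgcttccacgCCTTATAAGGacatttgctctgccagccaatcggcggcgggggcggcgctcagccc
Vcl (chr14:20929148-20929397, plus strand): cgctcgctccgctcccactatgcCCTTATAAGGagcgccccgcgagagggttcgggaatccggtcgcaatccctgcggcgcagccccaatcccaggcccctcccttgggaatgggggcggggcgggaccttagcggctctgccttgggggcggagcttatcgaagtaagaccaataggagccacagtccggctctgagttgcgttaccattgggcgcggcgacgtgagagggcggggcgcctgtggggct
Actg1 (chr11:120348496-120348745, minus strand): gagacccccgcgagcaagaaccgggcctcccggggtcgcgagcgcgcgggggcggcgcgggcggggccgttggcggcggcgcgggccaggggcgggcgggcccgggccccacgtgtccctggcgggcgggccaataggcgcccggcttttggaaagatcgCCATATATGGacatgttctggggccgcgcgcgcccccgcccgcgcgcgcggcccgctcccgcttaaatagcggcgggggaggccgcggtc
Smtn (chr11:3539293-3539542, minus strand): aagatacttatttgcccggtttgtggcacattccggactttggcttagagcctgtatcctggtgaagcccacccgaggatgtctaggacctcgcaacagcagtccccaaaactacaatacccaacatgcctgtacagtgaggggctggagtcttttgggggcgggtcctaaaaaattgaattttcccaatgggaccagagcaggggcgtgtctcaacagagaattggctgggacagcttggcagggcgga
Srf itself carried 2 boxes, which began 82 and 62 bases before the start, and Fhl2 carried 1 box in each of 2 alternative windows. The box lay 31 bases before the start in the Fhl2 window shown, 161 in Myl9, 56 in Cnn2, 227 in Vcl and 90 in Actg1. The MCAT element (CATTCC on either strand), a site of TEAD factors, was in the windows of 11 of the 28 genes (39.3%), against 4481 of 27025 (16.6%). Only exact matches were counted. Strings 1 letter off the CArG pattern, such as ccctatatgg and ccttgtttgg in the Acta2 window, were not. A match is only a string of letters, and a window without one says nothing about binding at inexact sites or elsewhere in the gene.

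These genes were among the brightest on the arrays. The mean log2 intensity over the 18 arrays was at least 14 for 11 of the 33 (33.3%), against 224 of the 10078 genes tested (2.22%). From the top they were Actg1 at 15.67, Actb at 15.54, Acta2 at 15.39, Tpm1 at 15.17, Cald1 at 15.09, Tagln at 15.01, Tpm2 at 14.85, Tpm4 at 14.67, Actn1 at 14.49, Cnn2 at 14.38 and Vcl at 14.10. Just under the limit lay Myl9 at 13.91 and Actg2 at 13.73. At the other end were the smooth muscle genes Myh11 at 7.31, the heavy chain of smooth muscle myosin, and Lmod1 at 7.29, an actin nucleator of smooth muscle. Such levels are probe set intensities and do not rank the transcripts by number.

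The 11 brightest genes lay above 98.7% of probe sets in every array, and 0.55 to 2.63 below the brightest probe set of the array, which was at 16.27 to 16.47. Their 9 group means spanned a median of only 0.18 on the log2 scale, against 0.70 for the other 22 genes. The same held for all genes tested: the median span was 0.65 for genes at 8 to 10, 0.56 at 10 to 12, 0.43 at 12 to 14 and 0.24 at 14 or more. Of the 11 brightest genes 2, Tagln and Cnn2, passed the test in at least 1 comparison of treated with untreated cells, and 14 of the other 22 did. The share of all genes that did so was not counted at either level, so no result is drawn from these counts. Whether the narrow span comes from the top of the array's scale or from steady transcripts was not tested.

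**Figure D1:**
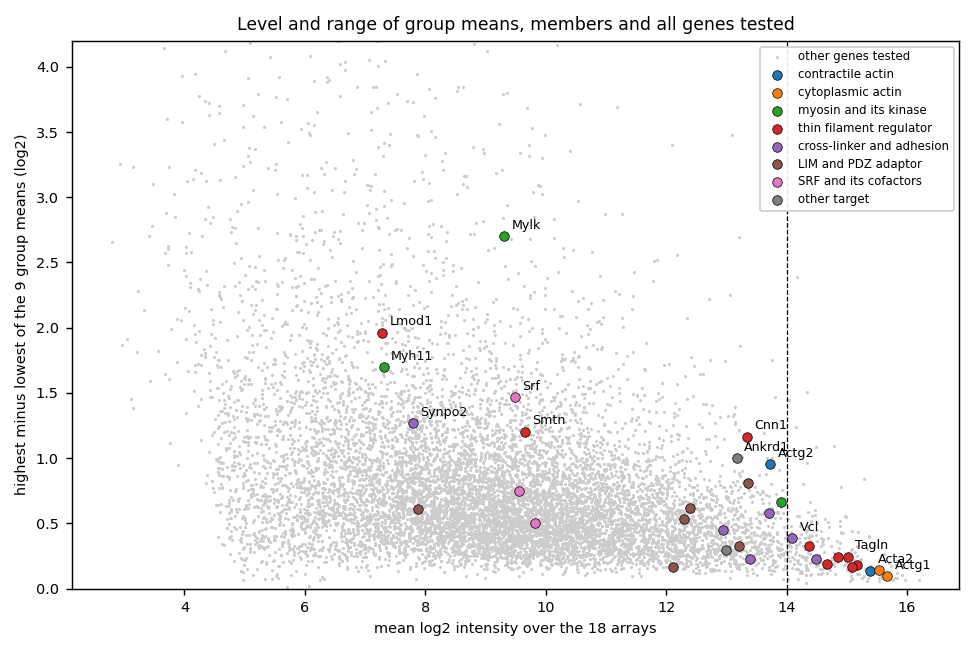
Mean log2 intensity over 18 arrays (horizontal) against the span of the 9 group means (vertical, log2) for the 33 genes, coloured by role, and for all genes tested (grey). Right of the dashed line at 14 lie 11 of the 33 genes with a median span of 0.18, while Mylk at 9.31 spans 2.70; the grey points above a span of 4.2 are outside the plot.

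In wt cells 7 of the 33 genes passed the test (limma, Benjamini-Hochberg adjusted p under 0.05) at 4 h (21.2%), 6 higher (18.2%) and 1 lower (3.03%), against 20.9% of all genes (9.49% higher and 11.4% lower). In heterozygous cells 9 passed (27.3%), 8 higher (24.2%) and 1 lower (3.03%), against 28.8% of all genes (15.7% and 13.2%). Homozygous cells had 10 (30.3%), 8 higher (24.2%) and 2 lower (6.06%), against 37.7% (20.1% and 17.5%). In both directions together these shares were near or under those of all genes. The share called lower was below that of all genes in each genotype. The share called higher was above it in wt and heterozygous cells and near it in homozygous cells. Called or not, 21, 17 and 14 of the 33 changes at 4 h were positive in wt, heterozygous and homozygous cells. At 24 h 4 genes passed in wt cells (1 higher and 3 lower), against 11.7% of all genes (4.51% higher and 7.14% lower). There was 1 in heterozygous cells (lower), against 7.06% (2.95% and 4.12%), and 3 in homozygous cells (1 higher and 2 lower), against 8.6% (3.1% and 5.51%). The median change of the 33 genes at 4 h was 0.02 in wt, 0.01 in heterozygous and -0.05 in homozygous cells, and at 24 h -0.09, -0.11 and -0.13, beside medians of all genes between -0.06 and 0.03. The 4 h and 24 h comparisons of a genotype share its 2 untreated arrays. This fit takes the arrays as unpaired. With the replicate number as a block within each genotype and the untreated wt numbers exchanged, a pairing chosen after seeing the data, 9, 11 and 11 genes passed at 4 h in wt, heterozygous and homozygous cells (30.9, 38.9 and 46.7% of all genes). At 24 h that pairing gave 12 (3 higher, 9 lower), 5 (all lower) and 8 (1 higher, 7 lower), against 20, 13.2 and 15.9% of all genes, and Actg2, Lmod1, Myl9, Mylk and Vcl were lower in all 3 genotypes. The wt calls depended on the pooled spread: with only the groups compared in the fit, 0 of the 33 genes passed in wt cells at either time (0.238% of all genes at 4 h and 0.744% at 24 h), while 17 passed in homozygous cells at 4 h and 10 at 24 h (54.8 and 20.2% of all genes). The counts at 4 h also moved in every genotype when 1 array at a time was left out. They were lowest without untreated wt replicate 1, heterozygous 4 h replicate 2 and untreated homozygous replicate 1 in wt, heterozygous and homozygous cells. The share of all genes called in those fits is not given here, so these shifts do not set the 33 genes apart.

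**Figure D2:**
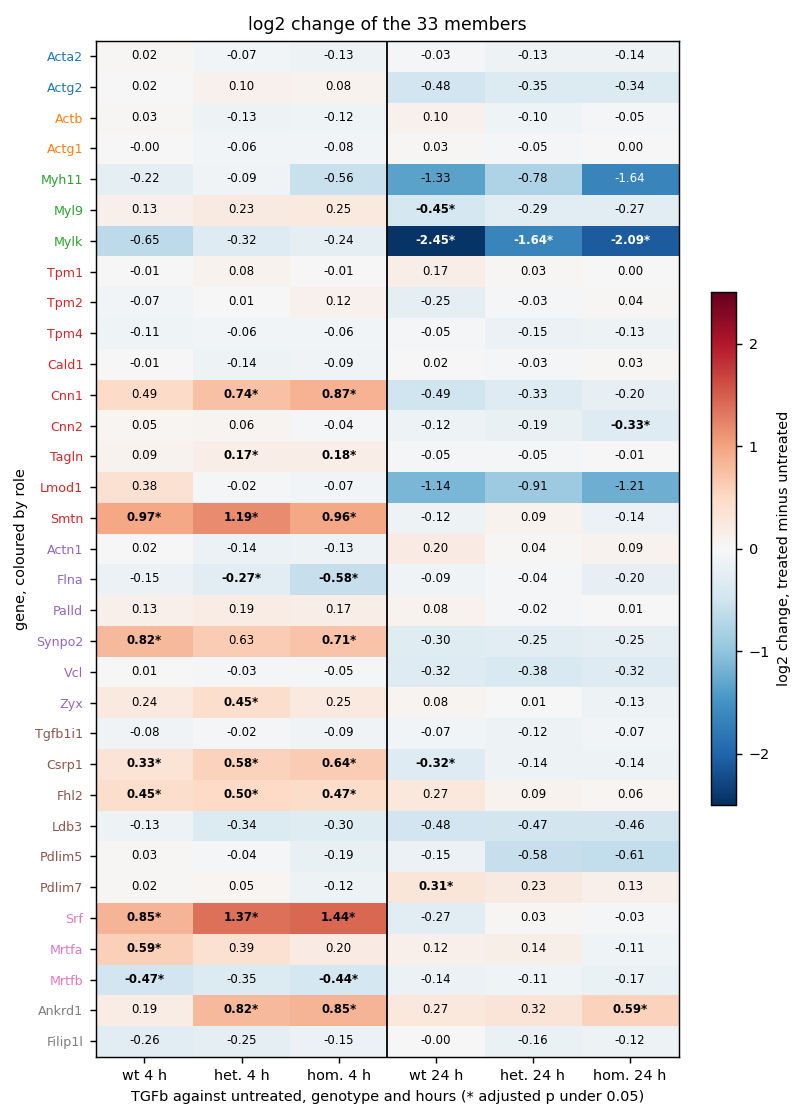
log2 change, treated minus untreated, of the 33 genes in the 6 treatment comparisons, with genes coloured by role and a star where the adjusted p was under 0.05. Srf, Smtn, Csrp1 and Fhl2 carry a star in all 3 columns at 4 h, and Mylk, with values of -1.64 to -2.45, in all 3 columns at 24 h.

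Srf rose within 4 h in all 3 genotypes and did not pass against untreated cells at 24 h. Srf in wt cells read 9.14 and 9.58 untreated, 10.29 and 10.13 at 4 h, and 9.06 and 9.13 at 24 h. The Srf values of heterozygous cells were 9.09 and 8.91, 10.26 and 10.48, and 9.03 and 9.03 in that order. Homozygous Srf levels were 9.01 and 8.91, 10.39 and 10.41, and 8.93 and 8.94. In each genotype both 4 h arrays were above both untreated arrays and both 24 h arrays. The rise at 4 h was 0.85 ± 0.13 (SE, adjusted p = 0.00108) in wt cells, 1.81-fold, 1.37 ± 0.13 (SE, adjusted p = 2.74e-05) in heterozygous cells, 2.58-fold, and 1.44 ± 0.13 (SE, adjusted p = 1.46e-05) in homozygous cells, 2.71-fold. No single array ended any of these calls. The untreated level in heterozygous and homozygous cells minus that in wt cells was -0.36 ± 0.13 (SE, adjusted p = 0.378) and -0.40 ± 0.13 (SE, adjusted p = 0.149), which did not pass the test. The rise in the mutants minus that in wt cells was 0.52 ± 0.19 (SE, adjusted p = 0.9999) and 0.58 ± 0.19 (SE, adjusted p = 0.53), which did not pass either. The other Srf probe set gave rises of 0.93, 0.97 and 0.73 in the 3 genotypes, all of which passed.

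Both cofactors of Srf passed at 4 h in wt cells only, in opposite directions. Mrtfa in wt cells read 9.24 and 9.66 untreated, 9.96 and 10.13 at 4 h, and 9.41 and 9.74 at 24 h. Mrtfb in wt cells read 10.10 and 9.99 untreated, 9.80 and 9.35 at 4 h, and 9.81 and 10.00 at 24 h. Mrtfa was higher in both wt arrays at 4 h than in the untreated arrays, and Mrtfb was lower in both. Mrtfa rose by 0.59 ± 0.20 (SE, adjusted p = 0.0486) in wt cells, and its changes of 0.39 ± 0.20 (SE, adjusted p = 0.154) and 0.20 ± 0.20 (SE, adjusted p = 0.448) in heterozygous and homozygous cells did not pass. Mrtfb fell: -0.47 ± 0.14 (SE, adjusted p = 0.0302) in wt and -0.44 ± 0.14 (SE, adjusted p = 0.0261) in homozygous cells, while -0.35 ± 0.14 (SE, adjusted p = 0.0775) in heterozygous cells did not pass. In homozygous cells Mrtfb read 10.08 and 9.89 untreated, 9.61 and 9.49 at 4 h and 9.83 and 9.80 at 24 h. The Mrtfa call lay just inside the limit and was lost without any of 10 of the 18 arrays: untreated wt replicate 1, wt 4 h replicate 2, the 4 heterozygous treated arrays, the untreated homozygous pair and the homozygous 4 h pair, with changes of 0.39 to 0.59. The wt Mrtfb call was lost without untreated replicate 1 or 4 h replicate 2 (-0.42 to -0.25), and the homozygous call without untreated replicate 1 or either 4 h array (-0.50 to -0.34). At 24 h neither gene passed in any genotype.

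Among the actins, the filament proteins themselves, no gene passed at its brightest probe set in any comparison of treated with untreated cells. Acta2 in wt cells read 15.49 and 15.32 untreated, 15.35 and 15.51 at 4 h, and 15.31 and 15.44 at 24 h. The Acta2 values of heterozygous cells were 15.49 and 15.42, 15.44 and 15.34, and 15.36 and 15.29 in that order. Homozygous Acta2 levels were 15.46 and 15.47, 15.28 and 15.38, and 15.39 and 15.27. All 18 values of Acta2, the marker of myofibroblasts, lay between 15.27 and 15.51; the wt groups overlapped, and both homozygous treated groups lay slightly below the untreated arrays. The 95% interval of the Acta2 change ran from -0.14 to 0.19 in wt cells at 4 h and from -0.20 to 0.13 at 24 h, and from -0.30 to 0.03 in homozygous cells at both times. Actg1 and Actb, the cytoplasmic actins that every cell uses, lay between 15.57 and 15.74 and between 15.40 and 15.65. Actb in wt cells read 15.58 and 15.40 untreated, 15.45 and 15.59 at 4 h, and 15.58 and 15.59 at 24 h. Actg1 in wt cells read 15.71 and 15.59 untreated, 15.62 and 15.68 at 4 h, and 15.69 and 15.68 at 24 h. In the same order, Actb read 15.65 and 15.59, 15.52 and 15.46, and 15.56 and 15.47 in heterozygous and 15.60 and 15.59, 15.45 and 15.50, and 15.59 and 15.50 in homozygous cells. In the mutants too, Actg1 read 15.74 and 15.69, 15.67 and 15.64, and 15.68 and 15.65 in heterozygous and 15.69 and 15.71, 15.57 and 15.67, and 15.72 and 15.68 in homozygous cells. The differences from untreated cells at these brightest probe sets lay between -0.13 and 0.10 for Actb and between -0.08 and 0.03 for Actg1. A dimmer kept Actb probe set, 1419734_at at 12.42 on average, was less steady. It read 12.84 and 12.69, 11.58 and 11.80, and 12.78 and 12.79 in heterozygous cells in that order. Homozygous cells gave 12.41 and 12.535, 11.92 and 11.79, and 13.02 and 12.67. Wt cells gave 12.71 and 11.71, 11.60 and 13.12, and 12.66 and 12.93. The Acta2 probe set 1444105_at, at 8.74, had group means of 9.02, 9.44 and 8.81 in wt cells (untreated, 4 h and 24 h). In that order they were 8.78, 8.99 and 8.13 in heterozygous and 8.55, 9.02 and 7.93 in homozygous cells. The wt arrays at 4 h and 24 h overlapped. The brightest probe sets of Acta2 and Actg1, 1416454_s_at and 1415779_s_at, are of a type counted here as cross-hybridizing. Actg2, the enteric smooth muscle actin, ranged from 12.88 to 14.31, with its lowest group mean in wt cells at 24 h (13.16) and its highest in heterozygous cells at 4 h (14.11), and its largest change, -0.48 ± 0.20 (SE, adjusted p = 0.151) in wt cells at 24 h, did not pass. With the pairing chosen after seeing the data, its falls of 0.48, 0.35 and 0.34 at 24 h in wt, heterozygous and homozygous cells passed. The 3' minus 5' difference of the Actb control probe sets, a measure of RNA integrity, was 0.24 to 0.28 in heterozygous and 0.22 to 0.26 in homozygous cells at 4 h, against 0.29 to 0.30 and 0.30 to 0.33 untreated and 0.32 to 0.38 in both at 24 h, and was 0.26 to 0.28, 0.28 to 0.32 and 0.28 to 0.34 in wt cells. Its part in the changes was not tested.

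Of the 3 myosin genes and myosin kinase genes, 2 fell at 24 h in at least 1 genotype. Mylk, the kinase that phosphorylates the myosin regulatory light chain and so starts contraction, fell in all 3 genotypes and had the largest change of the 33 genes. Mylk in wt cells read 10.93 and 9.94 untreated, 9.52 and 10.04 at 4 h, and 7.31 and 8.67 at 24 h. The Mylk values of heterozygous cells were 10.56 and 9.73, 10.03 and 9.62, and 8.74 and 8.26 in that order. Homozygous Mylk levels were 9.60 and 10.05, 9.32 and 9.84, and 7.56 and 7.91. Both 24 h arrays were below all untreated and 4 h arrays of their genotype. The fall at 24 h was -2.45 ± 0.44 (SE, adjusted p = 0.00335) in wt cells, -1.64 ± 0.44 (SE, adjusted p = 0.0394) in heterozygous cells and -2.09 ± 0.44 (SE, adjusted p = 0.00945) in homozygous cells, 5.45-, 3.13- and 4.25-fold. At 4 h the changes of -0.65 ± 0.44 (SE, adjusted p = 0.313), -0.32 ± 0.44 (SE, adjusted p = 0.619) and -0.24 ± 0.44 (SE, adjusted p = 0.702) did not pass. The heterozygous call was lost without any 1 of the 12 mutant arrays (-2.06 to -1.23, adjusted p of 0.0511 to 0.312), and the homozygous call without untreated replicate 2 or 24 h replicate 1 (-1.86 and -1.91). The other kept Mylk probe set fell by 2.31 at 24 h in wt cells, which passed, and its values of -2.13 and -2.27 in the mutants did not (adjusted p of 0.0845 and 0.0532).

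Myl9, the regulatory light chain that Mylk acts on, followed in part. Myl9 in wt cells read 14.13 and 14.09 untreated, 14.14 and 14.35 at 4 h, and 13.50 and 13.83 at 24 h. The Myl9 values of heterozygous cells were 13.98 and 13.85, 14.13 and 14.15, and 13.69 and 13.56 in that order. Homozygous Myl9 levels were 13.77 and 13.92, 14.03 and 14.15, and 13.59 and 13.57. In every genotype both 24 h arrays were below the untreated arrays. Its fall of -0.45 ± 0.10 (SE, adjusted p = 0.0149) passed in wt cells, and the changes of -0.29 ± 0.10 (SE, adjusted p = 0.133) and -0.27 ± 0.10 (SE, adjusted p = 0.146) in heterozygous and homozygous cells did not. The wt call was lost without untreated replicate 2 or 24 h replicate 1 (-0.47 to -0.28). Myh11 ranged from 5.84 to 8.46, and its lowest change, -1.64 ± 0.48 (SE, adjusted p = 0.051) in homozygous cells at 24 h, just missed the limit.

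**Figure D3:**
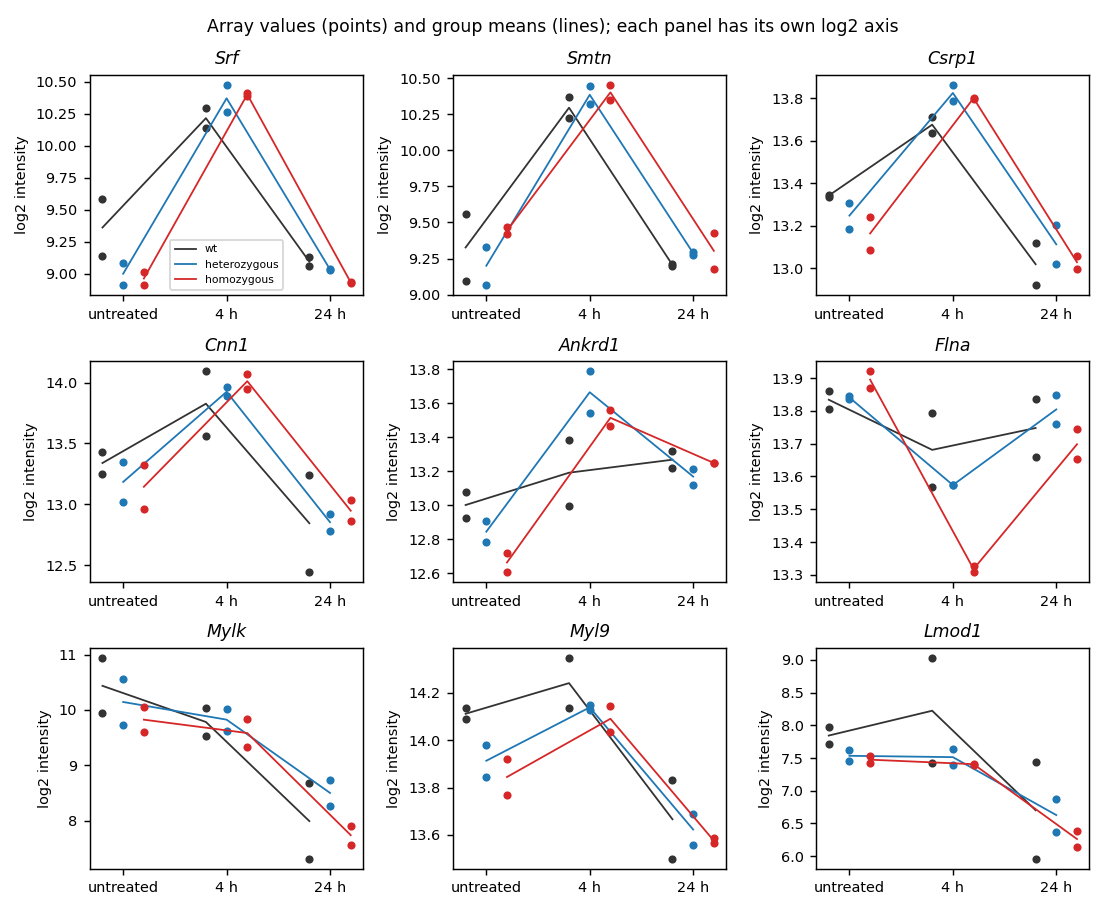
log2 intensity of 9 genes in untreated cells and after 4 h and 24 h of TGFb1, with a point per array and lines through the group means, coloured by genotype; each panel has its own vertical axis. Srf, Smtn and Csrp1 peak at 4 h in all 3 genotypes, Mylk is lowest at 24 h, and Flna at 4 h is lowest in homozygous cells (13.31 and 13.33).

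Of the thin filament regulators, proteins that stabilise actin filaments or tune their grip on myosin, Smtn rose in all 3 genotypes at 4 h, Cnn1 and Tagln rose in both mutants, and Tpm1, Tpm2, Tpm4, Cald1 and Lmod1 did not pass in any comparison of treated with untreated cells. Smtn in wt cells read 9.09 and 9.56 untreated, 10.23 and 10.37 at 4 h, and 9.21 and 9.20 at 24 h. The Smtn values of heterozygous cells were 9.07 and 9.33, 10.32 and 10.45, and 9.30 and 9.28 in that order. Homozygous Smtn levels were 9.42 and 9.47, 10.35 and 10.46, and 9.18 and 9.43. All 6 arrays at 4 h stood above the 12 others for Smtn, smoothelin of contractile smooth muscle. The rise was 0.97 ± 0.15 (SE, adjusted p = 0.000772), 1.19 ± 0.15 (SE, adjusted p = 0.000127) and 0.96 ± 0.15 (SE, adjusted p = 0.000388) in wt, heterozygous and homozygous cells, 1.96-, 2.27- and 1.94-fold, and no 1 array ended a call. At 24 h its changes of -0.12, 0.09 and -0.14 did not pass.

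Cnn1, a calponin that binds actin and slows myosin, was highest at 4 h. Cnn1 in wt cells read 13.43 and 13.25 untreated, 13.56 and 14.09 at 4 h, and 12.45 and 13.24 at 24 h. The Cnn1 values of heterozygous cells were 13.35 and 13.02, 13.96 and 13.89, and 12.92 and 12.79 in that order. Homozygous Cnn1 levels were 12.97 and 13.32, 13.95 and 14.07, and 12.86 and 13.04. At 4 h both arrays were above the untreated ones in each genotype. The rise of 0.74 ± 0.23 (SE, adjusted p = 0.0274) in heterozygous and 0.87 ± 0.23 (SE, adjusted p = 0.0101) in homozygous cells passed, and the change of 0.49 ± 0.23 (SE, adjusted p = 0.144) in wt cells did not. The difference between the mutant and wt responses was 0.25 ± 0.32 (SE, adjusted p = 0.9999) and 0.38 ± 0.32 (SE, adjusted p = 0.79) and did not pass, so no difference between the genotypes was shown. The heterozygous call was lost without untreated replicate 2 or either 4 h array (0.58 to 0.78), and the homozygous call without untreated replicate 1 or 4 h replicate 2 (0.69 and 0.80). Tagln in wt cells read 15.00 and 15.02 untreated, 15.06 and 15.14 at 4 h, and 14.88 and 15.04 at 24 h. The Tagln values of heterozygous cells were 15.02 and 14.96, 15.17 and 15.15, and 14.97 and 14.91 in that order. Homozygous Tagln levels were 14.91 and 14.95, 15.06 and 15.14, and 14.94 and 14.88. Tagln, transgelin, differed by little: 0.17 ± 0.06 (SE, adjusted p = 0.0418) in heterozygous and 0.18 ± 0.06 (SE, adjusted p = 0.0295) in homozygous cells at 4 h passed, and 0.09 ± 0.06 (SE, adjusted p = 0.271) in wt cells did not. The heterozygous Tagln call was lost without any 1 of 10 mutant arrays (all but homozygous at 4 h, 0.14 to 0.20) and with quantile normalisation, and the homozygous one without either untreated array or 4 h replicate 2 (0.13 to 0.19).

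Cnn2, the calponin of non-muscle cells, did not pass at 4 h and fell in homozygous cells at 24 h. Cnn2 in wt cells read 14.33 and 14.53 untreated, 14.45 and 14.51 at 4 h, and 14.30 and 14.32 at 24 h. The Cnn2 values of heterozygous cells were 14.39 and 14.42, 14.47 and 14.46, and 14.25 and 14.17 in that order. Homozygous Cnn2 levels were 14.495 and 14.49, 14.41 and 14.48, and 14.17 and 14.16. Both homozygous 24 h arrays lay below all arrays of homozygous cells at the other times. Its fall there was -0.33 ± 0.06 (SE, adjusted p = 0.00481), and the values of -0.19 ± 0.06 (SE, adjusted p = 0.0874) in heterozygous and -0.12 ± 0.06 (SE, adjusted p = 0.237) in wt cells did not pass. Lmod1 ranged from 5.96 to 9.02, and both ends were wt arrays, at 24 h and at 4 h. Its changes at 24 h, -1.14 ± 0.46 (SE, adjusted p = 0.14), -0.91 ± 0.46 (SE, adjusted p = 0.35) and -1.21 ± 0.46 (SE, adjusted p = 0.142), did not pass, with standard errors of 0.46. The tropomyosins and Cald1 had values between -0.25 and 0.17 in the 6 treatment comparisons.

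Of the 6 cross-linkers and adhesion proteins, Synpo2 and Zyx rose at 4 h in some genotypes and Flna fell in both mutants, while Actn1, Palld and Vcl did not pass. Flna, filamin A, links actin filaments into networks and ties them to integrins. Flna in wt cells read 13.86 and 13.81 untreated, 13.79 and 13.57 at 4 h, and 13.66 and 13.84 at 24 h. The Flna values of heterozygous cells were 13.84 and 13.85, 13.57 and 13.57, and 13.76 and 13.85 in that order. Homozygous Flna levels were 13.87 and 13.92, 13.31 and 13.33, and 13.65 and 13.74. At 4 h the homozygous arrays were the lowest of the 18. The fall at 4 h was -0.58 ± 0.08 (SE, adjusted p = 0.000169) in homozygous and -0.27 ± 0.08 (SE, adjusted p = 0.0212) in heterozygous cells, and the change of -0.15 ± 0.08 (SE, adjusted p = 0.176) in wt cells did not pass. The homozygous fall minus the wt change was -0.42 ± 0.11 (SE, adjusted p = 0.504), with an unadjusted p of 0.00193, and did not pass. The heterozygous call was lost without any of the 4 arrays it compares (-0.27 to -0.26), and no 1 array ended the homozygous one.

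Synpo2, myopodin of the actin bundle, was dim at 7.16 to 8.85. Synpo2 in wt cells read 7.70 and 7.75 untreated, 8.23 and 8.85 at 4 h, and 7.16 and 7.69 at 24 h. The Synpo2 values of heterozygous cells were 8.08 and 7.31, 8.36 and 8.29, and 7.41 and 7.48 in that order. Homozygous Synpo2 levels were 7.68 and 7.36, 8.09 and 8.38, and 7.26 and 7.29. The 4 h arrays were the highest of each genotype. It rose by 0.82 ± 0.26 (SE, adjusted p = 0.0404) in wt and 0.71 ± 0.26 (SE, adjusted p = 0.044) in homozygous cells, and 0.63 ± 0.26 (SE, adjusted p = 0.0833) in heterozygous cells did not pass. These calls lay close to the limit, and each was lost without many single arrays: 12 for wt cells (untreated wt pair, wt 4 h replicate 2 and 9 mutant arrays, 0.51 to 0.84) and 10 for homozygous cells (the 4 heterozygous treated and all 6 homozygous arrays, 0.55 to 0.88). Zyx in heterozygous cells read 12.62 and 12.89 untreated, 13.01 and 13.39 at 4 h, and 12.80 and 12.73 at 24 h. Zyx, a focal adhesion protein that moves to strained filaments, rose in heterozygous cells at 4 h by 0.45 ± 0.12 (SE, adjusted p = 0.0179), a call lost without untreated replicate 1 or 4 h replicate 2 (0.31 and 0.25). In wt and homozygous cells its changes of 0.24 ± 0.12 (SE, adjusted p = 0.191) and 0.25 ± 0.12 (SE, adjusted p = 0.135) did not pass, with values of 12.85 and 12.90 untreated, 13.08 and 13.14 at 4 h and 12.84 and 13.05 at 24 h in wt cells and 12.90 and 12.90 untreated, 13.06 and 13.24 at 4 h and 12.69 and 12.85 at 24 h in homozygous cells. Vcl, vinculin, which couples talin to actin, had values of -0.32, -0.38 and -0.32 at 24 h, none of which passed (adjusted p of 0.108, 0.0847 and 0.128).

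The LIM and PDZ domain adaptors, which sit on actin filaments and at focal adhesions, held 2 genes that rose in all 3 genotypes at 4 h. Csrp1 in wt cells read 13.35 and 13.34 untreated, 13.64 and 13.71 at 4 h, and 12.92 and 13.12 at 24 h. The Csrp1 values of heterozygous cells were 13.31 and 13.19, 13.87 and 13.79, and 13.20 and 13.02 in that order. Homozygous Csrp1 levels were 13.09 and 13.24, 13.80 and 13.80, and 12.998 and 13.06. Csrp1, a LIM protein of smooth muscle and fibroblasts, was higher in every 4 h array than in any other array. Its rise was 0.33 ± 0.08 (SE, adjusted p = 0.0156), 0.58 ± 0.08 (SE, adjusted p = 0.000408) and 0.64 ± 0.08 (SE, adjusted p = 0.000151) in wt, heterozygous and homozygous cells. At 24 h it was below the untreated level in wt cells, -0.32 ± 0.08 (SE, adjusted p = 0.0256), and the values of -0.14 in both mutants did not pass. The wt call at 4 h was lost without untreated replicate 1 or 4 h replicate 2 (0.34 and 0.30), and that at 24 h without either untreated array or 24 h replicate 1 (-0.33 to -0.23). Its other probe set gave 0.51, 1.08 and 0.996 at 4 h and -0.55 in wt cells at 24 h, all past the limit.

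Fhl2 in wt cells read 12.06 and 12.22 untreated, 12.63 and 12.55 at 4 h, and 12.37 and 12.45 at 24 h. The Fhl2 values of heterozygous cells were 11.97 and 12.17, 12.56 and 12.59, and 12.13 and 12.19 in that order. Homozygous Fhl2 levels were 12.08 and 12.04, 12.58 and 12.47, and 12.18 and 12.06. Fhl2, a LIM-only protein that binds Srf and integrins, was highest at 4 h in each genotype. It rose by 0.45 ± 0.08 (SE, adjusted p = 0.00305), 0.50 ± 0.08 (SE, adjusted p = 0.000942) and 0.47 ± 0.08 (SE, adjusted p = 0.00115), and no 1 array ended a call. At 24 h the change of 0.27 ± 0.08 (SE, adjusted p = 0.0552) in wt cells just missed the limit. Tgfb1i1, also known as Hic-5, and Ldb3 did not pass in any treatment comparison; Tgfb1i1 lay between 11.89 and 12.34 and Ldb3 between 7.17 and 8.33.

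Pdlim5 and Pdlim7 gave different answers by probe set. The brightest Pdlim5 probe set, 1450786_x_at at 12.39 on average, did not pass in any treatment comparison, with changes of -0.61 to 0.03. Probe set 1429783_at, at 8.76, read 9.15 and 8.77 untreated, 9.55 and 9.93 at 4 h and 7.97 and 8.26 at 24 h in wt cells. It read 8.68 and 8.69 untreated, 9.27 and 9.62 at 4 h and 7.75 and 8.11 at 24 h in heterozygous cells and 8.72 and 8.79 untreated, 9.37 and 9.45 at 4 h and 7.66 and 7.94 at 24 h in homozygous cells. It rose at 4 h by 0.78 ± 0.19 (SE, adjusted p = 0.0166), 0.76 ± 0.19 (SE, adjusted p = 0.0113) and 0.66 ± 0.19 (SE, adjusted p = 0.0171), and differed from the untreated level at 24 h by -0.85 ± 0.19 (SE, adjusted p = 0.0153), -0.76 ± 0.19 (SE, adjusted p = 0.0369) and -0.95 ± 0.19 (SE, adjusted p = 0.00869), in wt, heterozygous and homozygous cells. These p-values were adjusted over all 18958 probe sets kept, of which 17.1, 26.5 and 35% passed at 4 h and 9.14, 5.07 and 6.44% at 24 h. A further Pdlim5 probe set, 1427475_a_at, fell at 24 h in all 3 genotypes (-0.44, -0.51 and -0.54) with changes of -0.01, 0.06 and -0.01 at 4 h. The files do not say which transcripts each probe set covers.

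For Pdlim7 the brightest probe set, 1428319_at, rose in wt cells at 24 h. Pdlim7 in wt cells read 12.97 and 13.12 untreated, 13.16 and 12.98 at 4 h, and 13.33 and 13.37 at 24 h. The Pdlim7 values of heterozygous cells were 13.13 and 13.10, 13.12 and 13.21, and 13.43 and 13.26 in that order. Homozygous Pdlim7 levels were 13.23 and 13.25, 13.10 and 13.14, and 13.31 and 13.42. The rise was 0.31 ± 0.08 (SE, adjusted p = 0.0278), lost without untreated replicate 1 or either 24 h array (0.23 to 0.32), and changes of 0.23 ± 0.08 (SE, adjusted p = 0.127) and 0.13 ± 0.08 (SE, adjusted p = 0.437) in the mutants did not pass. Probe set 1417959_at of the same gene instead rose at 4 h by 0.60 ± 0.19 (SE, adjusted p = 0.0386) in heterozygous and 0.60 ± 0.19 (SE, adjusted p = 0.0313) in homozygous cells, and 0.54 ± 0.19 (SE, adjusted p = 0.0728) in wt cells did not pass. From 4 h to 24 h these probe sets went opposite ways, 0.28 against -0.73 in wt and 0.25 against -0.69 in homozygous cells, each past the limit.

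Dimmer probe sets of bright genes also moved where the brightest did not. For Actn1, 1427385_s_at at 11.43 rose at 4 h in heterozygous (0.61) and homozygous cells (0.52), while the values of -0.14 and -0.13 for 1428585_at at 14.49 did not pass. For Cald1, 1424768_at fell at 4 h in heterozygous (-0.38) and homozygous cells (-0.47). For Palld, 1427228_at rose at 4 h in wt (0.43) and heterozygous cells (0.42). Over the 63 kept probe sets, 10 passed in wt, 17 in heterozygous and 18 in homozygous cells at 4 h (9, 15 and 14 higher), and 8, 3 and 6 at 24 h (1, 1 and 2 higher). Of all probe sets kept, 17.1, 26.5 and 35% passed at 4 h and 9.14, 5.07 and 6.44% at 24 h in the same order.

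**Figure D4:**
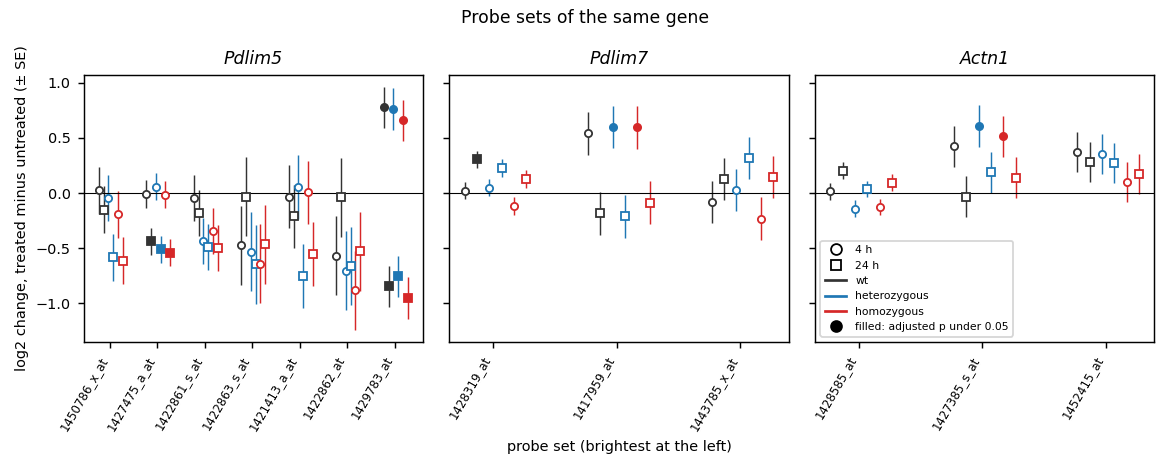
log2 change, treated minus untreated, with its standard error, for each kept probe set of Pdlim5, Pdlim7 and Actn1 from the brightest at the left; circles are 4 h, squares 24 h, colours genotypes, and filled marks have an adjusted p under 0.05. For Pdlim5 1429783_at the circles lie at 0.66 to 0.78 and the squares at -0.95 to -0.76, while no mark of 1450786_x_at is filled.

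Ankrd1, a stretch-responsive nuclear protein and target of the MRTF and YAP pathways, rose in both mutants at 4 h. Ankrd1 in wt cells read 12.92 and 13.08 untreated, 13.38 and 12.997 at 4 h, and 13.22 and 13.32 at 24 h. The Ankrd1 values of heterozygous cells were 12.90 and 12.78, 13.54 and 13.79, and 13.12 and 13.21 in that order. Homozygous Ankrd1 levels were 12.61 and 12.72, 13.47 and 13.56, and 13.25 and 13.25. In the mutants both 4 h arrays were above all untreated and 24 h arrays of their genotype, and in wt cells the 4 h and untreated arrays overlapped. The rise at 4 h was 0.82 ± 0.12 (SE, adjusted p = 0.00035) in heterozygous and 0.85 ± 0.12 (SE, adjusted p = 0.000196) in homozygous cells, 1.77- and 1.80-fold, and no 1 array ended these calls. In wt cells it was 0.19 ± 0.12 (SE, adjusted p = 0.264) and did not pass. The mutant minus wt responses of 0.63 ± 0.16 (SE, adjusted p = 0.9999) and 0.66 ± 0.16 (SE, adjusted p = 0.491) had unadjusted p of 0.00217 and 0.00153 and did not pass over all genes. At 24 h Ankrd1 was still higher in homozygous cells, 0.59 ± 0.12 (SE, adjusted p = 0.00658), a call lost without untreated replicate 1 (0.53, adjusted p = 0.0769). Untreated homozygous cells had a level -0.34 ± 0.12 (SE, adjusted p = 0.154) relative to wt cells, which did not pass. Filip1l, the last of the listed targets, lay between 12.76 and 13.25 and did not pass in any treatment comparison.

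Untreated cells of the 3 genotypes were compared to ask whether the mutant alone shifts these genes. None of the 33 genes passed by limma between heterozygous and wt (0.923% of all genes, 0.774% higher and 0.149% lower), homozygous and wt (1.77%, 1.15% higher and 0.615% lower) or homozygous and heterozygous cells (0%). At an unadjusted p under 0.05 there were 1, 5 and 0: Srf in the first comparison, and Srf, Ankrd1, Myl9, Tpm2 and Pdlim7 in the second. The share of all genes at that cut-off was not counted, here or for the responses below. No result is drawn from these counts or from the genes named. The differences of the 33 genes ranged from -0.61 to 0.37. Leaving out untreated wt replicate 1 changed the count in each comparison with wt cells, and the share of all genes in that fit is not given here. With the pairing chosen after seeing the data, Actg2 was higher in heterozygous than in wt cells (0.37, 4.72% of all genes called), and Myl9 and Mylk were lower in homozygous than in wt cells (-0.27 and -0.61, 10.5% of all genes called). None of the 33 passed for the 4 differences between a mutant and the wt response (0% of all genes in each). At an unadjusted p under 0.05 there were 2 for heterozygous cells at 4 h and 1 at 24 h, and 4 for homozygous cells at 4 h and 2 at 24 h. Leaving out wt 4 h replicate 1 changed the count of adjusted calls at 4 h in each mutant, and the share of all genes in that fit is not given here.

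The times were also compared directly. The change itself then uses no untreated array, but its standard error and p-value rest on the spread of all 9 groups, untreated ones among them. Some of these calls, such as that of Actn1 in homozygous cells, were lost when an untreated array was left out. From 4 h to 24 h 11 genes passed in wt cells (2 higher, 9 lower), 15 in heterozygous (1 higher, 14 lower) and 14 in homozygous cells (3 higher, 11 lower). That is 33.3, 45.5 and 42.4% of the 33, beside 34.3, 32.2 and 36.9% of all genes (15.1, 14.9 and 14.9% higher). The genes lower at 24 h made up 27.3, 42.4 and 33.3% of the 33, beside 19.2, 17.3 and 22% of all genes. Lower in all 3 genotypes were 8 genes: Srf, Smtn, Csrp1, Cnn1, Cnn2, Myl9, Mylk and Synpo2. The share of all genes lower in all 3 genotypes was not counted, so no result is drawn from this number. Srf fell by 1.12, 1.34 and 1.47, Smtn by 1.09, 1.10 and 1.10, and Cnn1 by 0.98, 1.07 and 1.06 in wt, heterozygous and homozygous cells. Fhl2, Tagln and Zyx were also lower in both mutants, by 0.41 and 0.41, 0.22 and 0.19, and 0.43 and 0.38. Flna was higher at 24 h in both mutants, by 0.23 and 0.38. Of the 40 calls 18 held without any 1 array. With only the groups compared 0 of the 33 and 0% of all genes passed in wt cells. With the pairing chosen after seeing the data the wt count was 18 (44.5% of all genes). The wt count fell without wt 4 h replicate 2 and grew without wt 4 h replicate 1. The heterozygous count fell without heterozygous 24 h replicate 2, and the homozygous count without homozygous 4 h replicate 2. The share of all genes in the fits without 1 array is not given here, so these shifts do not set the 33 genes apart.

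Other genes of the pathway were read from 2 further lists. Of 19 measured genes of non-muscle myosin and focal adhesion, 3 passed higher and 2 lower in wt cells at 4 h, 3 and 4 in heterozygous, and 3 and 7 in homozygous cells. All genes had 9.49% higher and 11.4% lower, 15.7 and 13.2%, and 20.1 and 17.5%. Pxn, paxillin of focal adhesions, rose in all 3 genotypes (0.73, 0.99 and 1.11), and Svil, supervillin, fell (-1.07, -1.02 and -1.02). Lims1, an adaptor of integrin-linked kinase, fell in heterozygous (-0.73) and homozygous cells (-0.56). At 24 h the list held 0 higher and 3 lower, 0 and 2, and 0 and 3, beside 4.51 and 7.14%, 2.95 and 4.12%, and 3.1 and 5.51% of all genes. Myl6, a myosin essential light chain, was higher at 4 h in heterozygous (0.60) and homozygous cells (0.59) and lower at 24 h in wt (-0.74) and homozygous cells (-0.65).

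Of 17 measured paralogues of the 33 genes, 3 passed higher and 1 lower in wt cells at 4 h, 2 and 1 in heterozygous, and 6 and 1 in homozygous cells, beside 20.9, 28.8 and 37.7% of all genes in both directions together. Fhl3, a relative of Fhl2, rose in homozygous cells at 4 h (1.92), and Synpo, the relative of Synpo2, fell at 4 h in all 3 genotypes (-1.02, -1.05 and -1.36). At 24 h the list held 1 higher and 3 lower in each genotype, beside 11.7, 7.06 and 8.6% of all genes. Pdlim2, a relative of Pdlim5 and Pdlim7, fell at 24 h in all 3 (-2.39, -1.64 and -1.87), and Myocd, myocardin, the smooth muscle and heart cofactor of Srf, fell at 24 h in wt (-1.49) and heterozygous cells (-1.51). Csrp2, the relative of Csrp1, named after its values were seen, rose at 4 h (1.06, 1.24 and 1.18) and was still higher at 24 h (1.001, 1.10 and 1.17) in all 3 genotypes.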

How the data were processed

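Total RNA was hybridised to Affymetrix arrays after a single amplification, per the labels' protocols. The deposited values are linear intensities per probe set, which the authors made with GCRMA, per the submitters' processing notes (its version is not given in the sources used here). Intensities were taken to log2. Probe sets were kept with a log2 of at least 5 in at least 2 of 18 arrays, which left 18958 of 45101, and a gene was read from its brightest probe set with 1 symbol (10078 genes). A model of the 9 group means was fitted over all genes with limma 3.58.1 in R 4.3.3 (lmFit, eBayes with trend), and Benjamini-Hochberg adjusted p-values under 0.05 passed. The same model over all probe sets kept gave the values of single probe sets. The fit was tested on simulated data. Array values are given for genes that passed in a treatment or untreated genotype comparison and for Acta2, Tagln, Cnn1, Srf, Mrtfa, Mrtfb, Actb and Actg1; from each further list up to 4 called genes with the largest change are named. The genes and lists were chosen with earlier results of these data known. Alternatives covered the filter, probe set choice, normalisation, pseudocount, array weights, samples in the fit, replicate numbers, a muscle marker covariate and each array left out. A further gene list is not reported here.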

Additional observations from a re-analysis of the deposited data

Results flagged for a closer look

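Cnn2 moved opposite ways in the mutants at 4 h: both heterozygous arrays were above the untreated ones, with a change of 0.06, and both homozygous arrays were below, with a change of -0.04. Neither change passed, and the difference between them was not tested.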

How the results depend on the processing

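Over 74 calls of these genes (treated against untreated, and 24 h against 4 h) and 30 alternatives, 71 kept their sign throughout and 26 passed under every one. When the kept probe sets of each gene were averaged the 24 h minus 4 h change turned for Pdlim7 in wt (-0.078) and homozygous cells (-0.0196) and for Actn1 in homozygous cells (-0.027). Counts of genes called against untreated cells moved as follows, and the cause was not tested. The share of all genes called also moved with the setting, as given above for the fits with only the groups compared. It is not given beside the counts in this paragraph, so they do not set these genes apart from the others. Without the filter there were 4 in wt cells at 4 h and 0 in heterozygous cells at 24 h, and with cross-hybridizing probe sets left out 2 in the latter. With array weights there were 1 and 0 in wt cells at 4 h and 24 h, 8 in heterozygous cells at 24 h, and 17 and 11 in homozygous cells at 4 h and 24 h. With only the groups compared there were 0 and 0 in wt cells, 2 in heterozygous cells at 24 h, and 17 and 10 in homozygous cells. With the muscle marker covariate there were 9 in wt and 6 in homozygous cells at 24 h, and 1 in each comparison of untreated mutant with wt cells. From 4 h to 24 h, array weights gave 4 in wt and 23 in homozygous cells, only the groups compared gave 0 in wt cells, and the covariate gave 7 in heterozygous cells. The labels do not say what a replicate number marks. Across genes, same-numbered arrays deviated together within heterozygous (r of 0.38 to 0.45) and homozygous cells (0.54 to 0.61). In wt cells the untreated numbers ran against those at 4 h and 24 h (-0.49 and -0.66), as Xist did, and the 4 h and 24 h numbers together (0.57). Between genotypes r was -0.19 to 0.19. The arrays were kept unpaired. With the replicate block the counts at 4 h were 6, 10 and 9 in wt, heterozygous and homozygous cells, at 24 h 4, 0 and 3, and between the times 12, 14 and 15. A replicate block within each genotype, added after seeing the data, gave 7 in wt cells at 24 h. With the crossed pairing (untreated wt numbers exchanged, also added after seeing the data) there were 12, 5 and 8 at 24 h, 1 and 2 for untreated heterozygous and homozygous against wt cells, and 18 in wt cells between the times. Leaving out 1 array at a time gave 3 to 11 genes in wt, 5 to 11 in heterozygous and 6 to 11 in homozygous cells at 4 h, 2 to 7, 0 to 3 and 2 to 5 at 24 h, and 5 to 15, 7 to 17 and 8 to 16 between the times. It gave 0 to 1 for each untreated mutant against wt cells, 0 to 1 for each mutant minus wt response at 4 h, and 0 for both responses at 24 h and for the untreated mutants against each other. The widest standard errors of a change were those of Myh11 (0.48), Lmod1 (0.46) and Mylk (0.44).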
